A study of Mus musculus with 6 samples.

Results

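The 9 genes described here encode the core transcription factors of mouse pluripotency: Pou5f1, Nanog, Sox2, Klf4, Klf5, Esrrb, Zfp42, Sall4 and Tfcp2l1. They were taken by gene name from the deposited gene table, which lists 26982 genes. No threshold on their values was used, but they were chosen with earlier results of these data known. Their read counts came from RNA sequencing of mouse 2-cell embryos in 3 groups of 2 libraries. In the group Suv39h1wt, zygotes were microinjected at the fertilisation cone stage, 18 h phCG (counted from the hormone dose that makes the mother ovulate), with wild-type Suv39h1 mRNA at 0.6 µg/µl. In the group Suv39h1mut they received the same amount of a mutant mRNA whose mutation the labels do not name, and the third group was non-injected. SUV39H1 is a methyltransferase that places trimethylation on lysine 9 of histone H3, a mark of constitutive heterochromatin. All 3 groups were kept in KSOM, an embryo culture medium, and the labels give neither the strain nor the number of embryos pooled in a library. The labels name no edited allele and no group injected with another mRNA, so the injection itself and the Suv39h1 mRNA cannot be told apart in comparisons with non-injected embryos.

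In embryonic stem cells these factors bind one another's genes and hold the pluripotent state together. OCT4, the product of Pou5f1, and SOX2 bind DNA side by side, NANOG stabilises the network, and KLF4, KLF5, ESRRB and TFCP2L1 link it to the cytokine LIF and to WNT signalling. In the embryo, transcripts of Pou5f1 and Sall4 are already stored in the oocyte, whereas Nanog and Sox2 are mainly switched on by the embryo's own genome during cleavage, before the inner cell mass forms.

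The upstream sequence of members is shown first, since shared control regions are what a common response of the factors would be sought in. RefSeq (build GRCm38.p6) held promoter windows for 7 of the 9 genes, 10 windows in all, each with 250 bases before and 50 after an annotated start. No window was held for Klf5 and Sall4. These coordinates belong to that build and not to mm9, the build of the counts. Below, the 250 bases before the start are given 5′ to 3′ for 4 genes, with capitals marking the matched words. They are 3 genes with matched words and Esrrb, whose level varied most between libraries.
Nanog (chr6:122707239-122707488, plus strand): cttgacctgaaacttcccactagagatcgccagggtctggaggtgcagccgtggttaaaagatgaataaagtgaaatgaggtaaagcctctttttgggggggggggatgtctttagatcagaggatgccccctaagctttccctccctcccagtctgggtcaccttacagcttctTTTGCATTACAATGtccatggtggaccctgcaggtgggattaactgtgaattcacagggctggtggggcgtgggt
Zfp42 (chr8:43307010-43307259, minus strand): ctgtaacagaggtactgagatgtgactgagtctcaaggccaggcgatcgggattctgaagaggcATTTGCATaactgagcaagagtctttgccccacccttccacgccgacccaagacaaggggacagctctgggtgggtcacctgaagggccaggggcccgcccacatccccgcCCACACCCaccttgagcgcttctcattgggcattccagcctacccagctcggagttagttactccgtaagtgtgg
Tfcp2l1 (chr1:118627695-118627944, plus strand): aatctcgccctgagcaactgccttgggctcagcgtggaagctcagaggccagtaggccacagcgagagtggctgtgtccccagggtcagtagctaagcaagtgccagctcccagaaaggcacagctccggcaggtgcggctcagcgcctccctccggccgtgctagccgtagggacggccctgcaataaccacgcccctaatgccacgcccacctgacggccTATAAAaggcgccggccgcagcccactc
Esrrb (chr12:86421394-86421643, plus strand): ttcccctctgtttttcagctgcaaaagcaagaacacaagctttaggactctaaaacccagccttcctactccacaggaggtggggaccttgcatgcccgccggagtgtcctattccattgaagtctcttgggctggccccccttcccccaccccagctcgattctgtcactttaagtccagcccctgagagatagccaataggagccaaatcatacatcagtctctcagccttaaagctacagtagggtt

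The words were searched on both strands in all 32851 RefSeq windows of the same length. They were the octamer ATGCAAAT bound by POU factors, the SOX word CATTGTT, the KLF word GGGTGTGG, the ESRRB word TCAAGGTCA and the word TATAAA. The capitals in the Nanog sequence are a composite of the SOX word CATTGT and the octamer part ATGCAAA separated by 1 base, read on the opposite strand. It began 75 bases before this start and 151 bases before the other start that RefSeq gives for Nanog. The last bases of the Nanog window shown, after its start, were not found in a GENCODE transcript, whereas those of the other Nanog window were. The last bases of the Zfp42 window were not found in one either. That composite was searched after the Nanog window had been read, and it occurred in 2 of the 32851 windows (0.00609%), both of Nanog. Zfp42 had the octamer on the opposite strand, beginning 186 bases before its start, and the KLF word on the opposite strand, beginning 75 bases before it. The octamer was found in 1.74% and the KLF word in 3.56% of all windows. Tfcp2l1 had TATAAA 28 bases before its start, a word found in 13.6% of all windows. The second Pou5f1 window had the SOX word on the opposite strand at 159 bases before its start, and that word was found in 3.78% of all windows. The ESRRB word was in none of the 10 windows and in 0.423% of all. Neither Esrrb window held any of these 5 words, nor did the windows of Sox2 and Klf4 or the first of Pou5f1. The number of CpG dinucleotides per window was 40 for Klf4, 27 for Sox2, 21 for Tfcp2l1, 11 for Zfp42, 11 and 6 for Pou5f1, 7 and 7 for Esrrb and 4 and 4 for Nanog, against a median of 7 over all windows. A match is a description of the letters only.

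The 6 libraries held between 33497519 and 48572265 gene counts, and between 18463 and 22349 genes had a count in a library. Transcripts of the mitochondrial genome took a larger share in library 2 than in library 1 of every group. The shares in libraries 1 and 2 were 34.8% and 58.0% in Suv39h1wt, 37.6% and 48.9% in Suv39h1mut, and 40.7% and 55.0% in non-injected embryos. Suv39h1 itself had a level of 38.2 ± 4.42 CPM without injection, 34.8 ± 9.60 CPM after the mutant and 44.6 ± 9.33 CPM after the wild-type mRNA (SD, n = 2), so the injected mRNA did not stand out from the spread. CPM are counts scaled to library size, after TMM correction of those sizes. The stage was checked against markers: 10 of 15 listed 2-cell markers were in the table and their summed level ran from 330 to 939 CPM. Zfp352, at 199 CPM or more in every library, weighed most in this sum. Of the 10, between 8 and 9 reached 1 CPM in a library. Zfp365 was at 0.824 CPM or less throughout. Zscan4f was at 0.510 and 0.765 CPM in the non-injected libraries, and Pramef6 at 1.35 CPM in non-injected library 2. Of the cumulus and granulosa cell markers, Amh, Fshr, Inha and Cd44 were at or near 0 in all libraries. Others were read, with Gja1 at 1.97 to 19.6 CPM over the libraries, Tnfaip6, Kitl and Cyp19a1 at up to 9.65, 7.59 and 4.19 CPM, and Foxl2 at 6.75 CPM in Suv39h1wt library 2. The summed level of the 14 in the table was 15.8 to 37.2 CPM. That of 5 sperm markers was at most 2.09 CPM, and that of 7 blood markers was 3.54 to 22.1 CPM. The highest cumulus and blood sums were both in Suv39h1wt library 2, which also had the lowest Esrrb, and their part in the results was not tested.

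All 9 factors were read in every library, and all 9 passed the low-count filter that left 17638 genes for testing. Their counts ranged from 28 for Esrrb in Suv39h1wt library 2 to 7209 for Sall4 in non-injected library 1. Levels between genes were compared per kilobase of gene length. By the length in the authors' table, the mean level over the 6 libraries was 130.9 CPM per kb for Sall4 and 82.7 CPM per kb for Pou5f1. Klf4 followed at 17.9 and Klf5 at 14.5 CPM per kb. Esrrb stood at 7.05, Zfp42 at 6.18, Nanog at 2.46, Sox2 at 2.18 and Tfcp2l1 at 0.765 CPM per kb. Sall4 and Pou5f1, both maternal transcripts in the mouse, were at percentiles 97.0 and 94.8 of the tested genes by this length, and Tfcp2l1 was at percentile 25.3. Of the 8 neighbouring pairs in this order, Pou5f1 and Klf4 were the pair whose 6 libraries did not overlap. The authors' length was 0.496 kb for Pou5f1 and 0.773 kb for Sall4, whereas their longest GENCODE transcripts are 1.362 and 5.073 kb. Over the 16683 tested genes with a transcript in GENCODE, the authors' length was within 5% of the median transcript for 55.1% and of the longest transcript for 28.8%.

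By the longest transcript, Pou5f1 came first at 30.1 and Sall4 second at 19.9 CPM per kb. Pou5f1 was above Sall4 in 5 of 6 libraries by this length, and Sall4 above Pou5f1 in 6 of 6 by the authors' length. Klf4 stood at 11.5, Klf5 at 7.45, Zfp42 at 6.06 and Esrrb at 3.87 CPM per kb. Sox2 at 2.43, Nanog at 2.22 and Tfcp2l1 at 0.765 CPM per kb closed the order. By this length all neighbouring pairs overlapped. Pou5f1 was at percentile 93.0, Sall4 at 88.8 and Tfcp2l1 at 31.3 of the tested genes with a GENCODE transcript. Under both lengths the upper 4 places were held by Sall4, Pou5f1, Klf4 and Klf5, and Tfcp2l1 was last.

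**Figure D1:**
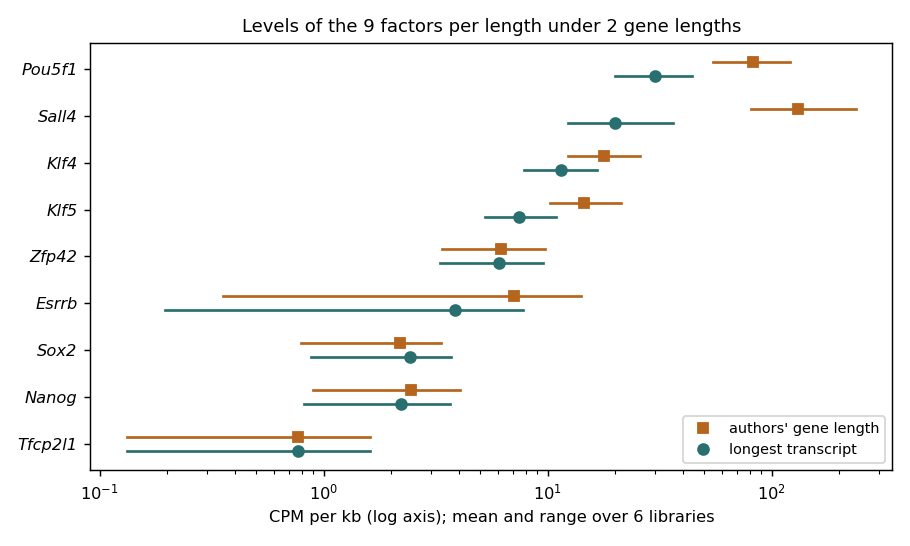
Levels of the 9 factors per kilobase (CPM per kb, log axis) under the authors' gene length (squares) and the longest GENCODE transcript (circles); markers are means and lines the range over the 6 libraries. Sall4 moved from 130.9 to 19.9 CPM per kb between the lengths, while Tfcp2l1 was at 0.765 CPM per kb under both.

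In the comparison of Suv39h1wt with Suv39h1mut embryos, which sets the injected mRNAs side by side, none of the 9 factors differed beyond the spread between libraries. Sox2 and Klf5 were higher in both Suv39h1wt libraries than in both Suv39h1mut libraries, as were 12.3% of tested genes. No factor was lower in both, against 15.1% of tested genes. With no scaling factors, 0 of 9 factors were separated in either direction. Both injected groups were also set beside the non-injected embryos, which are thereby shared between the other 2 comparisons. In both of these, Esrrb and Klf5 had lower levels in the injected libraries, as had 8.47% of tested genes in all 4, without passing the test. In edgeR's quasi-likelihood test with Benjamini-Hochberg adjustment, 0 of 9 factors and 0 of 17638 genes (0%) had an adjusted p under 0.05 in each of the 3 comparisons. At an unadjusted p under 0.05 there were again 0 of 9 factors, against 2.72% of all tested genes between the injected groups, 6.16% for Suv39h1wt and 4.43% for Suv39h1mut against the control. DESeq2 called 44 (0.249%), 284 (1.61%) and 59 genes (0.335%) in these comparisons and 0 of the 9 factors. Whether the libraries of a group are separate embryo collections is not said in the labels, so the p-values speak only for the spread among these 6 libraries. These were whole embryos, in which fewer cells expressing a gene and less RNA per cell cannot be told apart.

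Pou5f1 (ENSMUSG00000024406, mm9 chromosome 17, 35642982 to 35647721), the POU-domain factor at the head of the network, was at 33.8 and 34.8 CPM in the non-injected libraries. It was at 51.9 and 38.6 CPM in Suv39h1mut and at 59.8 and 27.1 CPM in Suv39h1wt libraries. The non-injected libraries lay close together, both Suv39h1mut libraries lay above them, and the Suv39h1wt libraries lay on either side. The log2 fold change was 0.40 ± 0.55 (SE) for Suv39h1mut and 0.34 ± 0.55 for Suv39h1wt against non-injected embryos (adjusted p of 0.946 and 0.920 in edgeR), and -0.06 ± 0.55 between the injected groups. Pou5f1 was the 1 factor of 9 whose Suv39h1mut libraries were both above both non-injected ones, which held for 18.9% of tested genes, and they overlapped where no scaling factors were used. Of its 31-base words, 14.2% also occur in other genes, 11.3% in Gm19553, so part of its reads could belong to near-identical copies.

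Sox2 (ENSMUSG00000074637, chromosome 3, 34548927 to 34551383), the HMG-box partner of OCT4, was at 1.81 and 4.22 CPM in non-injected, 2.97 and 6.09 CPM in Suv39h1mut and 7.27 and 7.62 CPM in Suv39h1wt libraries. The Suv39h1wt libraries were above all other 4, and the other groups overlapped. Against non-injected embryos the log2 fold change in Suv39h1wt was 1.30 ± 1.02 (95% interval -0.97 to 3.58, adjusted p of 0.805 in edgeR), and against Suv39h1mut it was 0.72 ± 1.01. Its counts were 71 to 379 per library. Sox2 lies within the span of Sox2ot, a long non-coding gene with 5 to 169 counts per library. Whether exons of the 2 genes overlap was not examined. Under no scaling factors, the Suv39h1wt and Suv39h1mut libraries overlapped for Sox2.

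Nanog (ENSMUSG00000012396, chromosome 6, 122657507 to 122664651), a homeodomain factor, was at 4.08 and 4.44 CPM in non-injected libraries. In the injected groups library 2 was higher than library 1, at 1.8 and 7.43 CPM in Suv39h1mut and 3.63 and 8.14 CPM in Suv39h1wt. The groups overlapped in all comparisons, and log2 fold changes were 0.11 to 0.46 with SEs of 1.07 to 1.08. The 4.13-fold gap between the Suv39h1mut libraries was larger than any difference between group means. Of its 31-base words, 10.7% occur in other genes, most often in the pseudogene Nanog-ps1.

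**Figure D2:**
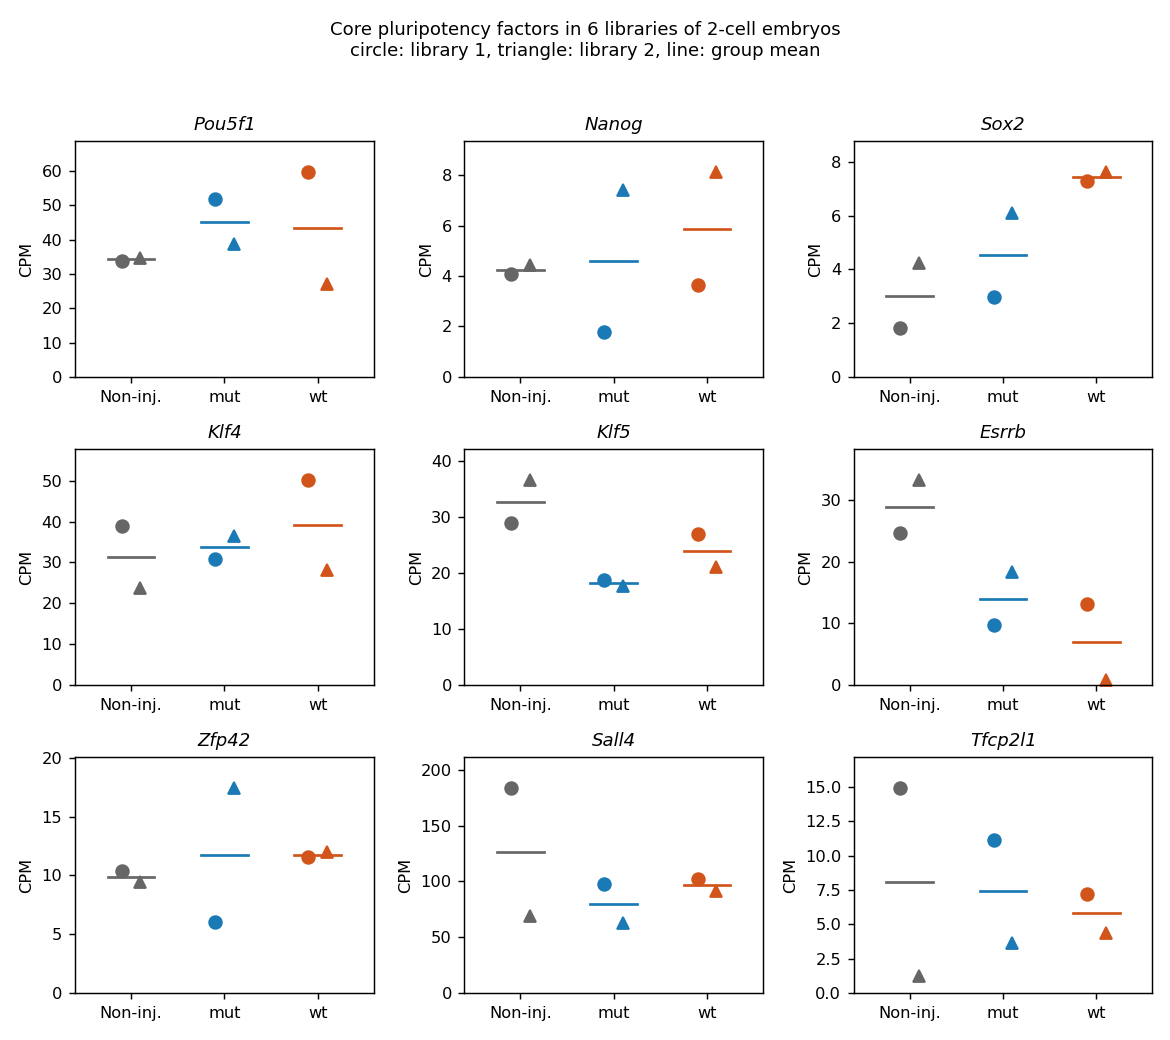
Levels of the 9 factors (CPM, linear axis from 0) in each library; circles are library 1, triangles library 2 and lines the group means. Esrrb and Klf5 were lower in all 4 injected libraries than in both non-injected ones, and Sox2 was highest in the Suv39h1wt libraries at 7.27 and 7.62 CPM.

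Esrrb (ENSMUSG00000021255, chromosome 12, 87702067 to 87862578), an orphan nuclear receptor that can stand in for NANOG in embryonic stem cells, was at 24.6 and 33.3 CPM in non-injected libraries. It was at 9.71 and 18.3 CPM in Suv39h1mut and at 13.2 and 0.844 CPM in Suv39h1wt libraries. Every injected library was thus below both non-injected ones. The lowest value rested on 28 counts, and the Suv39h1wt libraries differed 15.6-fold from each other, more than the injected groups differed from the control. Against non-injected embryos the log2 fold change was -2.04 ± 1.05 in Suv39h1wt (95% interval -4.37 to 0.29, adjusted p of 0.753 in edgeR) and -1.05 ± 1.02 in Suv39h1mut (adjusted p of 0.909). Without Suv39h1wt library 1, which leaves the library with 28 counts alone in its group and assumes that it varies like the other groups, the value was -5.05 and passed (adjusted p of 0.0471 in edgeR). That fit also called 44 genes in all where the fit with 6 libraries called 0. Without Suv39h1wt library 2 the value was -1.12. DESeq2 gave an adjusted p of 0.322 for Suv39h1wt vs non-injected, the lowest of any factor.

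Klf5 (ENSMUSG00000005148, chromosome 14, 99697910 to 99712624), a Krüppel-like zinc finger factor needed in the early mouse embryo for the first lineages, was at 28.9 and 36.6 CPM in non-injected libraries. It was at 27.0 and 21.0 CPM in Suv39h1wt and at 18.7 and 17.7 CPM in Suv39h1mut libraries. The 3 groups did not overlap and stood in the order non-injected, Suv39h1wt, Suv39h1mut. The log2 fold change was -0.85 ± 0.56 for Suv39h1mut vs non-injected (95% interval -2.09 to 0.39, adjusted p of 0.880 in edgeR), -0.45 ± 0.56 for Suv39h1wt vs non-injected and 0.40 ± 0.56 for Suv39h1wt vs Suv39h1mut. Klf5 and Esrrb were the 2 factors of 9 below both non-injected libraries in all 4 injected ones, as were 8.47% of tested genes, and this held under all 5 scalings tried. The separation of Suv39h1wt from Suv39h1mut was lost under upper-quartile scaling and under no scaling factors.

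Klf4 (ENSMUSG00000003032, chromosome 4, 55540013 to 55545347), the Krüppel-like factor used in reprogramming, was at 39.0 and 23.9 CPM in non-injected, 30.9 and 36.4 CPM in Suv39h1mut and 50.2 and 28.1 CPM in Suv39h1wt libraries. All groups overlapped. Its log2 fold changes, 0.10 to 0.32 with an SE of 0.56, all had intervals that include 0, from -1.14 at the lowest to 1.56 at the highest. Klf4 and Klf5 thus took different orders over the groups, a difference that was not tested.

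Zfp42 (ENSMUSG00000051176, chromosome 8, 44380422 to 44392363), which encodes the zinc finger protein REX1 and marks naive pluripotent cells, was at 10.3 and 9.43 CPM in non-injected and 11.5 and 12.0 CPM in Suv39h1wt libraries. In Suv39h1mut it was at 6.07 and 17.4 CPM, below and above all other libraries. Its log2 fold changes were 0.00 ± 0.77 between the injected groups and 0.25 ± 0.77 for each of them against non-injected embryos. Zfp42 and Sox2 were the 2 of 9 factors with both Suv39h1wt libraries above both non-injected ones, as in 16.8% of tested genes, and the Zfp42 libraries overlapped under no scaling factors. Of its 31-base words, 13.4% occur in the pseudogene Zfp42-ps1.

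Sall4 (ENSMUSG00000027547, chromosome 2, 168573832 to 168593443), a spalt-like zinc finger factor, was at 184 and 69.2 CPM in non-injected, 98.1 and 62.3 CPM in Suv39h1mut and 102 and 91.7 CPM in Suv39h1wt libraries. Both injected groups lay between or below the non-injected values, and all groups overlapped. The log2 fold change was -0.66 ± 0.55 for Suv39h1mut and -0.39 ± 0.55 for Suv39h1wt vs non-injected. Without non-injected library 1 these became 0.26 and 0.55. The lincRNA Gm14261 overlaps Sall4 and had at most 7 counts.

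Tfcp2l1 (ENSMUSG00000026380, chromosome 1, 120524522 to 120581744), a CP2-family factor and a target of STAT3 in mouse embryonic stem cells, was at 14.9 and 1.22 CPM in non-injected libraries. It was at 11.2 and 3.64 CPM in Suv39h1mut and at 7.22 and 4.37 CPM in Suv39h1wt libraries. Both injected groups lay within the non-injected values. Its log2 fold changes were -0.48 to -0.13 with an SE of 1.16. Without non-injected library 1, which held 585 of its counts, they were 2.30 for Suv39h1wt and 2.64 for Suv39h1mut vs non-injected.

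**Figure D3:**
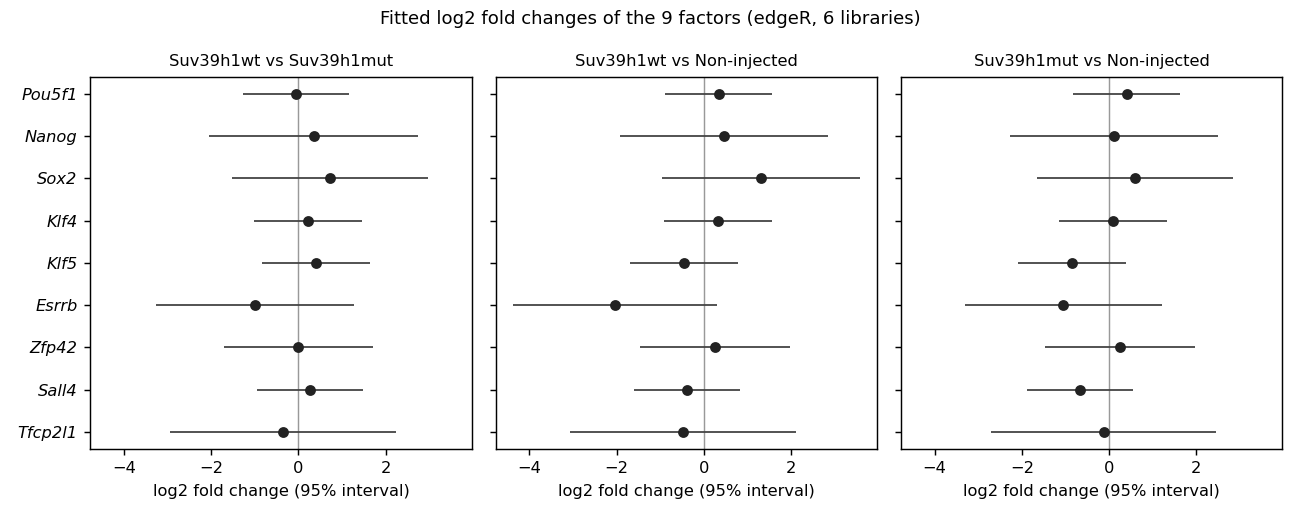
Fitted log2 fold changes (points) of the 9 factors with 95% intervals (lines) in the 3 comparisons, from edgeR on 6 libraries. Every interval crosses 0, and Esrrb in Suv39h1wt vs non-injected lies farthest from it, at -2.04.

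Counts of separated groups were read against all tested genes. In Suv39h1wt vs Suv39h1mut, 2 of 9 factors had both libraries higher, as had 12.3% of tested genes, and 0 of 9 had both lower, as had 15.1%. In Suv39h1wt vs non-injected, 2 of 9 were higher and 2 of 9 (Klf5 and Esrrb) lower, against 16.8% and 17.5% of tested genes. In Suv39h1mut vs non-injected, 1 of 9 was higher and 2 of 9 (again Klf5 and Esrrb) lower, against 18.9% and 16.5%. No factor had all 4 injected libraries above both non-injected ones, as 8.59% of tested genes had. With 9 genes, such shares differ from the background by 1 or 2 genes. The authors' deposited table for Suv39h1wt vs Suv39h1mut gives log2 fold changes of the 9 factors between -0.80 for Esrrb and 0.63 for Sox2. Adjusted p in the authors' deposited table ran from 0.809 to 0.990 for them, and 58 genes in that table are under 0.05.

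Libraries of one group often stood far apart. Between the lowest and highest of the 6 libraries, Esrrb differed 39.4-fold and Tfcp2l1 12.2-fold, and the other 7 factors between 2.07-fold for Klf5 and 4.52-fold for Nanog. The median difference between the libraries of a group, on the log2 scale, was 0.66 for the factors and 0.81 for all tested genes in Suv39h1wt, 0.88 and 0.72 in Suv39h1mut, and 0.43 and 0.73 in non-injected embryos. Sall4 and Tfcp2l1 were lower in library 2 of all 3 groups, as were 21.0% of tested genes. Nanog and Sox2 were higher in library 2 of all 3 groups, as were 18.1%. The mitochondrial share was higher in library 2 throughout, and its part in these 4 genes was not tested.

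The genes whose log2(CPM + 1) was most like that of each factor were read from the 13420 genes that averaged 1 CPM or more. The 6 libraries carry group, library number and depth together, and between 12 and 65 genes per factor had a Pearson r of 0.95 or more, so likeness is a description only. Closest to Pou5f1 were Lancl1 (r = 0.989) and Gopc (0.988), to Nanog Furin (0.990) and BC026585 (0.989), and to Sox2 Rap2b (0.993) and Slc23a2 (0.991). Closest to Klf4 were Magoh (0.993) and Tktl1 (0.986), and to Klf5 Atp5c1 and Polr2k (both 0.977). Closest to Esrrb were Mafg (0.993) and Tfpt (0.990), and to Zfp42 Idh3a (0.993) and Pde6g (0.987). Closest to Sall4 were Rpgr (0.991) and Scaf11 (0.982), and to Tfcp2l1 2610002M06Rik (0.997) and Myadm (0.987). None of the 9 factors was among these 18 genes.

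Genes that act with the core factors gave a setting for their values. Among 27 tested partners of the network, 0 passed in any comparison, with a median log2 fold change of -0.08 between the injected groups, and of -0.20 (Suv39h1wt) and -0.17 (Suv39h1mut) against non-injected embryos. The medians of all tested genes were -0.01, 0.02 and 0.02, and those of the 9 factors were 0.22, 0.25 and 0.10. The partners were higher than non-injected in 11 of 27 for Suv39h1wt and in 9 of 27 for Suv39h1mut, against 50.8% and 50.7% of all tested genes. With no scaling factors the partners' medians became -0.26 between the injected groups and -0.32 for Suv39h1wt vs non-injected. With 1 library left out, the partners' medians in the same 3 comparisons ran from -0.29 to 0.05, from -0.35 to 0.10 and from -0.31 to 0.14. Those of the 9 factors ran from 0.06 to 0.36, from -0.30 to 0.47 and from -0.37 to 0.26, so their direction against non-injected embryos rested on single libraries. Etv5, an ETS factor downstream of FGF signalling, was at 51.8 and 77.3 CPM in non-injected libraries. In the injected libraries Etv5 was at 19.9 to 29.1 CPM, lower in all 4, as were 8.47% of tested genes. It was named for the smallest p of the partners in both comparisons with non-injected embryos, so this separation comes with the choice. Its log2 fold change was -1.65 ± 0.54 for Suv39h1wt and -1.38 ± 0.53 for Suv39h1mut vs non-injected (adjusted p of 0.753 and 0.880 in edgeR). Myc, a growth regulator used in reprogramming, was at 9.87 and 10.1 CPM in non-injected, 4.44 and 4.23 CPM in Suv39h1mut and 0.384 and 1.78 CPM in Suv39h1wt libraries, without passing (adjusted p of 0.753 in edgeR for Suv39h1wt vs non-injected). Gbx2, a homeobox target of LIF and STAT3, went the other way, at 9.82 and 5.76 CPM in non-injected against 30.8 and 17.4 CPM in Suv39h1mut libraries. Smad1, a mediator of BMP signals, was at 14.1 and 5.73 CPM in Suv39h1wt against 27.8 and 20.5 CPM in Suv39h1mut libraries. Myc was thus lower in all 4 injected libraries, as were 8.47% of tested genes. Gbx2 was higher in both Suv39h1mut than in both non-injected libraries, as were 18.9%. Smad1 was lower in both Suv39h1wt than in both Suv39h1mut libraries, as were 15.1%. Myc, Gbx2 and Smad1 were also named for their small p, so these separations come with the choice.

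Of 18 tested target and marker genes of pluripotent cells, 5 were higher in Suv39h1wt and 7 higher in Suv39h1mut than in non-injected embryos, against 50.8% and 50.7% of all tested genes, with medians of -0.42 and -0.31, and 0 passed. Fgf4 is a growth factor gene that OCT4 and SOX2 activate together in embryonic stem cells. It was at 15.8 and 19.5 CPM in non-injected libraries and at 4.15 to 10.4 CPM in the injected ones. It was thus lower in all 4 injected libraries, as were 8.47% of tested genes. Fgf4 was named as 1 of the 2 genes with the smallest p of the list in Suv39h1mut vs non-injected embryos (adjusted p of 0.880 in edgeR). Tet1, which oxidises 5-methylcytosine, was at 139 and 132 CPM in non-injected and 102 and 53.2 CPM in Suv39h1wt libraries. Lin28a, an RNA-binding protein, was at 36.2 and 53.3 CPM in Suv39h1wt and 56.3 and 98.5 CPM in Suv39h1mut libraries. Tet1 was thus lower in both Suv39h1wt than in both non-injected libraries, as were 17.5% of tested genes. Lin28a was lower in both Suv39h1wt than in both Suv39h1mut libraries, as were 15.1%. Nodal and Eras, named by the same rule, were at most at 4.92 and 6.28 CPM in any library. Between the injected groups 9 of the 18 were higher, against 49.3% of all tested genes, with a median of 0.03.

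The 10 tested genes of the LIF and STAT3 pathway, upstream of Klf4 and Tfcp2l1, had medians of 0.11, 0.20 and 0.03 in the 3 comparisons, and 0 passed. Jak2, the kinase next to the receptor, was at 526 and 315 CPM in non-injected and 681 and 629 CPM in Suv39h1mut libraries. Socs3, a feedback inhibitor, was at 15.4 and 30.95 CPM against 12.7 and 11.7 CPM. Jak2 was thus higher in both Suv39h1mut than in both non-injected libraries, as were 18.9% of tested genes. Socs3 was lower in both, as were 16.5%. Jak2 and Socs3 were named for the smallest p of the list in that comparison. Pias3, an inhibitor of STAT3, was at 3.09 and 20.1 CPM in the non-injected libraries. Lif itself was at 4.23 CPM in 1 non-injected library and at 0.381 CPM or less in the other 5.

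Among 27 tested relatives of the factors from the KLF, SOX, POU, SALL, ESRR and CP2 families, medians were 0.04, 0.04 and 0.20, and 0 passed. Klf10, a TGF-beta response gene, was at 4.64 and 19.8 CPM in non-injected, 34.8 and 28.2 CPM in Suv39h1mut and 62.9 and 55.4 CPM in Suv39h1wt libraries. Where its relative Klf5 was lower in all 4 injected libraries, Klf10 was thus higher in all 4, as were 8.59% of tested genes. It was named for the smallest p of the relatives in Suv39h1wt vs non-injected embryos. Its log2 fold change was 2.27 ± 0.71 for Suv39h1wt vs non-injected (adjusted p of 0.753 in edgeR). Sox17, an endoderm factor, had 0 counts in both non-injected libraries, 51 and 25 in Suv39h1mut and 126 and 21 in Suv39h1wt. Sox17 was thus higher in all 4 injected libraries, as were 8.59% of tested genes, and was also named for its small p. Klf12 also had 0 counts in both non-injected libraries, and 277 and 0 in Suv39h1mut. Klf8 and Klf15 stayed at 7.26 CPM or less.

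Regulators of the first lineages oppose the core factors in the blastocyst. The 10 tested had medians of 0.85 between the injected groups, and of 0.83 (Suv39h1wt) and -0.37 (Suv39h1mut) against non-injected embryos, and 0 passed. With 1 library left out these became 0.45 to 0.85, -0.39 to 1.34 and -0.94 to 0.30. Tead4, which with YAP starts the trophectoderm programme, was at 21.4 and 31.8 CPM in non-injected, 5.17 and 28.6 CPM in Suv39h1mut and 3.22 and 4.85 CPM in Suv39h1wt libraries. Its log2 fold change for Suv39h1wt vs non-injected was -2.72 ± 0.89 (adjusted p of 0.753 in edgeR). Both Suv39h1wt libraries were below both non-injected ones, as in 17.5% of tested genes. Gata3, a trophectoderm factor, was at 0.281 and 0.276 CPM in non-injected and at 1.44 to 3.47 CPM in injected libraries. Hand1, a trophoblast factor, was at 22.0 CPM in Suv39h1wt library 2 and at 3.01 CPM or less in the other 5.

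Summed levels of 2-cell stage markers and of oocyte transcripts were also higher in all 4 injected libraries than in the non-injected ones. A few genes weighed heavily in each sum. The summed level of the 10 stage markers in the table was 330 and 348 CPM in non-injected, 606 and 496 CPM in Suv39h1mut and 721 and 939 CPM in Suv39h1wt libraries. Medians of the 9 tested were 1.77 for Suv39h1wt and 1.11 for Suv39h1mut vs non-injected, and 0 passed. Zscan4d, of the transient 2-cell Zscan4 cluster, was at 20.9 and 6.52 CPM in non-injected and 114 and 61.2 CPM in Suv39h1wt libraries. Gm6763 was at 15.2 and 23.8 CPM against 133 and 157 CPM. Zscan4d and Gm6763 were thus higher in both Suv39h1wt than in both non-injected libraries, as were 16.8% of tested genes. They were named for the smallest p of the list in that comparison. Zfp352 alone was at 199 and 268 CPM in the non-injected libraries. Against non-injected embryos, 8 of the 9 tested were higher in Suv39h1wt and 7 of 9 in Suv39h1mut, against 50.8% and 50.7% of all tested genes. Tdpoz4 had log2 fold changes of -0.03 (Suv39h1wt) and -0.24 (Suv39h1mut), and Pramef6 of 0.20 and -0.91. The summed level of 12 oocyte transcripts was 1038 and 1414 CPM in non-injected, 1823 and 1921 CPM in Suv39h1mut and 1681 and 1949 CPM in Suv39h1wt libraries. Oosp1 and Bmp15 were the highest of these in every library. Oosp1 overlapped between groups, at 225 and 557 CPM in non-injected and 425 to 1020 CPM in injected libraries. Medians of the 12 were 0.48 (Suv39h1wt) and 0.31 (Suv39h1mut) vs non-injected. With 1 library left out, the median for Suv39h1mut ran from -0.08 to 0.33. Zar1, a maternal factor, was at 6.71 and 21.1 CPM in non-injected, 12.5 and 16.02 CPM in Suv39h1mut and 21.5 and 42.9 CPM in Suv39h1wt libraries. Gdf9, an oocyte growth factor, was at 164 and 269 CPM in non-injected, 229 and 154 CPM in Suv39h1mut and 273 and 263 CPM in Suv39h1wt libraries. Both genes, named for the smallest p of the list in that comparison, were higher in both Suv39h1wt than in both Suv39h1mut libraries. So were 12.3% of tested genes, and the non-injected libraries of both genes spanned a wide range. Of the same transcripts, the zona gene Zp3 was lower in all 4 injected libraries, as were 8.47% of tested genes. Bmp15, an oocyte growth factor, was higher in all 4, as were 8.59%. These 2 were named for the smallest p of the list in Suv39h1mut vs non-injected embryos. The part of stage and of maternal transcripts in the levels of the 9 factors was not tested.

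**Figure D4:**
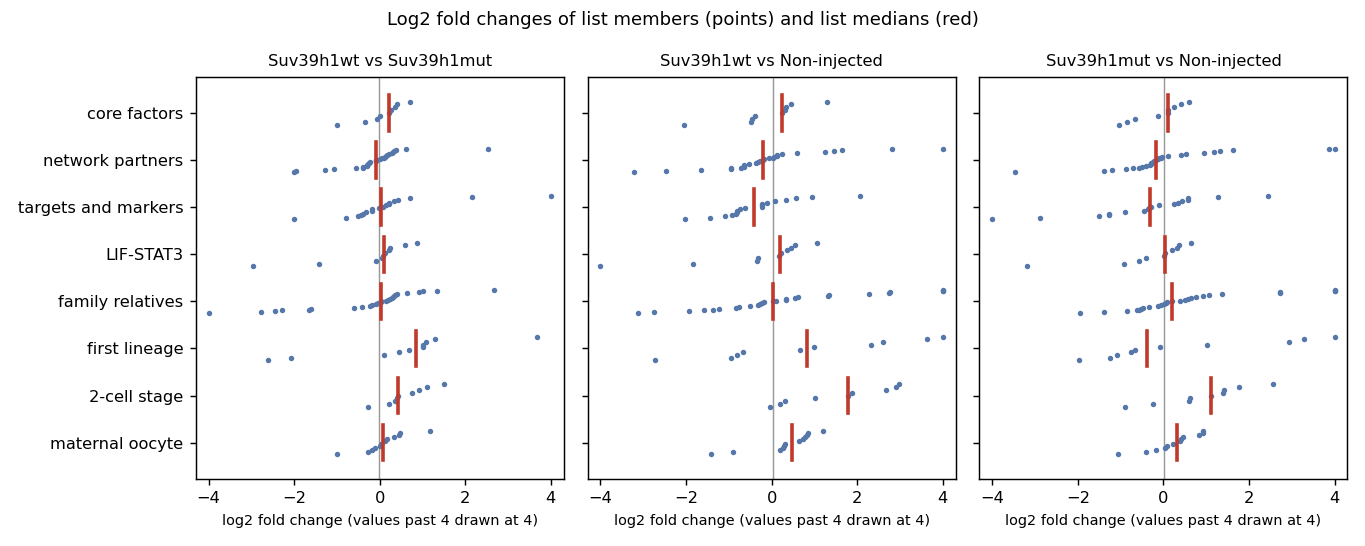
Log2 fold changes of the tested members of each list (points, values past 4 in size drawn at 4) and list medians (red bars) in the 3 comparisons; grey lines mark the median of all tested genes. The core factors had medians of 0.22, 0.25 and 0.10, and the 2-cell stage markers had 1.77 in Suv39h1wt vs non-injected.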

How the data were processed

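Counts of reads per gene in 6 libraries were analysed, 2 per group as given by the sample titles. Per the labels' protocols, amplified cDNA was made from 2 ng of RNA by the Ovation V2 kit, primed at random and at poly-A tails. Per the submitters' processing notes, base calling used CASAVA 1.8.2, alignment to mm9 used TopHat2 2.0.14 with Bowtie, and counting used HTSeq 0.6.1. The annotation release and strand setting are not given in the sources used here. Per the file headers, the deposited table holds raw counts, a signal (normalized counts, which on testing were the counts over 1 size factor for each library) and that signal over gene length. The authors' log2 fold changes and p-values for Suv39h1wt vs Suv39h1mut, by a test not named there, are quoted as the authors' values. No column of per-sample values was left unmapped (0).

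The raw counts were fitted with R 4.3.3 and edgeR 4.0.16 (TMM scaling, filterByExpr with a minimum count of 10, robust quasi-likelihood F test, group as the only factor, all 6 libraries), leaving 17638 genes, 3 residual degrees of freedom and a biological coefficient of variation of 0.862. A Benjamini-Hochberg adjusted p under 0.05 was called. Alternatives were DESeq2 1.42.0, other scalings and filters, fits without mitochondrial genes or on the compared groups only, a replicate block, and leaving out each library. The fits were also run on simulated counts drawn independently for each library. That run does not cover the shared deviation of same-numbered libraries described next, and no result here rests on it. Same-numbered libraries deviated together (r = 0.306, 0.251 and 0.268 between groups, over 17638 genes). Over the 6820 genes with a mean above 10 CPM, r was 0.519, 0.489 and 0.479. The number was taken as a pairing in the replicate block only and not in the main fit. The labels do not say what it marks. Libraries of a group differed far beyond counting noise, and none was merged. The members, the lists and the alternatives were chosen with earlier results of these data known. Named are all 9 members, Suv39h1, the 2 list genes with the smallest p per comparison in the lists described (the cumulus, sperm and blood lists are given as sums), and the 2 genes most like each member. Zfp352, Zfp365, Zscan4f, Tdpoz4, Pramef6, Oosp1 and the cumulus markers are named outside this rule, as checks chosen after their values were seen. Gene lengths and shared words came from GENCODE M21, promoters from RefSeq.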

Additional observations from a re-analysis of the deposited data

How the results depend on the processing

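Of 405 log2 fold changes of the 9 factors under 15 alternatives, 377 kept their direction and their side of the threshold, 27 changed sign and 1 came to pass. No gene of the table passed in edgeR with all 6 libraries, whereas 18, 33 and 9 passed with no low-count filter and 44, 284 and 59 in DESeq2, for the injected groups against each other, Suv39h1wt against the control and Suv39h1mut against the control. Leaving out 1 library gave 0 to 18, 0 to 44 and 0 to 1 genes in the same order (18 and 44 without Suv39h1wt library 1, 3 in the second comparison without Suv39h1wt library 2), and 0 to 1 factors in Suv39h1wt vs non-injected. In fits with the replicate number as a block, which treat equal numbers as pairs, 0 genes and 0 factors passed. The biological coefficient of variation was then 0.774. An unadjusted p under 0.05 in edgeR was reached by 4.02%, 10.2% and 9.98% of tested genes in the 3 comparisons, more than without the block. The block turned Tfcp2l1 to 0.28 (Suv39h1wt) and 0.35 (Suv39h1mut) and Nanog to -0.23 (Suv39h1mut), all vs non-injected. The block changed no other direction and no call of a factor. Zfp42 in Suv39h1wt vs Suv39h1mut, at 0.00, became -0.041 under upper-quartile scaling, -0.12 under no scaling factors and -0.00491 without mitochondrial genes. With 1 library left out, values that changed sign ranged, for Suv39h1wt vs Suv39h1mut, from -0.71 to 0.41 for Pou5f1, -0.34 to 1.73 for Nanog, -0.23 to 0.59 for Klf4, -0.57 to 0.97 for Zfp42, -0.0028 to 0.64 for Sall4 and -0.93 to 0.68 for Tfcp2l1. For Suv39h1wt vs non-injected they ranged from -0.30 to 0.82 for Pou5f1, -0.22 to 0.97 for Nanog, -0.13 to 0.78 for Klf4, -0.92 to 0.55 for Sall4 and -1.36 to 2.30 for Tfcp2l1. For Suv39h1mut vs non-injected they ranged from -1.23 to 0.81 for Nanog, -0.21 to 0.54 for Klf4, -0.69 to 0.82 for Zfp42, -1.20 to 0.26 for Sall4 and -1.15 to 2.64 for Tfcp2l1. Sox2, Klf5 and Esrrb kept their direction in all 3 comparisons under all 15 alternatives, in places only just. With 1 library left out, Sox2 in Suv39h1mut vs non-injected ran from 0.0018 to 1.32. Esrrb in Suv39h1wt vs Suv39h1mut ran from -4.02 to -0.076. The cause of these changes was not tested. Upper-quartile scaling shifted the median of all genes by 0.11 in Suv39h1mut vs non-injected, and no scaling factors by -0.12 and -0.11 in the comparisons of Suv39h1wt. Of 492 recomputed list medians 59 moved by more than the spread between replicates. With 1 library left out, the medians of the 2-cell markers against non-injected embryos stayed above 0, at 1.24 to 2.25 (Suv39h1wt) and 0.44 to 1.72 (Suv39h1mut). The order of levels per length kept its places under the authors' normalization and changed with the longest transcript, chosen after seeing the data. The limits are 2 libraries per group, 3 residual degrees of freedom and factors read at 28 to 7209 counts.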
